A study of Mus musculus with 2 samples.

Results

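The H3K4me3 peaks described here lay over isolated pseudogenes of the mouse autosomes in prospermatogonia. A pseudogene was taken as isolated when its annotated body lay over 20 kb from both ends of every protein-coding gene, and a peak was included when it shared at least 1 bp with such a body. The choice used positions alone and no peak value. It gave 2368 peaks out of 122479 on chromosomes 1 to 19 and 135064 in the whole peak list. These peaks lay over 1873 of 5413 isolated pseudogenes, out of 9496 autosomal pseudogenes in the annotation.

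The study profiled H3K4me3 by CUT&RUN, in which an antibody directs a nuclease to cut and release the DNA around a histone mark. The cells were prospermatogonia, which are the precursors of spermatogonia in the testis before birth, sorted as Oct-GFP+ at E17.5 (embryonic day), with 130000 cells used. Oct-GFP is a green fluorescent reporter of the germ cell gene Oct4. There was 1 library with an H3K4me3 antibody and 1 with rabbit IgG from the same kind of cells. Only the H3K4me3 peak list was used here, and the IgG values were not analysed. No genetic or drug treatment is given in the labels, and the number of animals behind the sort is not given there. With 1 library there was no replicate, so no test of a difference was made, and every interval below covers counting error only.

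Pseudogenes are copies of genes that are held to have lost the coding function of their parent. Processed pseudogenes arise when a messenger RNA is copied back into DNA and inserted elsewhere, usually without the parent's promoter, while duplicated pseudogenes arise with their flanking DNA and often sit in tandem clusters beside related genes. H3K4me3 is a histone mark found above all at the promoters of active or poised genes. Genes of high expression in the germ line, such as those for ribosomal proteins, have left many processed copies.

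The labelled cell type was checked at gene ends within 1 kb. All 8 germ cell genes (Ddx4, Dazl, Pou5f1, Dppa4, Tex101, Sall4, Dnd1, Mael) had a peak, with the highest fold of each between 3.17 and 7.64. All 6 genes of the Sertoli cell list, the supporting cells of the testis, also had one, at 2.54 to 8.32. Of the Leydig cell list 1 of 5 had a peak (Cyp11a1), and of the endothelial and blood cell list 2 of 6 (Tek and Kdr). The part of other testis cells in the pseudogene peaks was not tested. Across all genes, 74.4% of 20661 protein-coding genes had a peak within 1 kb of an end.

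The sequence of a marked pseudogene could be shown at 4 places, where the 300 bp start window of an annotated long noncoding RNA (250 bases before the start to 50 after it) lay wholly inside both a peak and an isolated pseudogene. They are shown for their CG dinucleotides, which are in capitals, because CG-rich DNA is the usual setting of H3K4me3 at promoters. Sequences are from RefSeq for GRCm38.p6, the assembly that mm10 stands for, written 5′ to 3′ on the strand of the noncoding RNA.
Gm13165: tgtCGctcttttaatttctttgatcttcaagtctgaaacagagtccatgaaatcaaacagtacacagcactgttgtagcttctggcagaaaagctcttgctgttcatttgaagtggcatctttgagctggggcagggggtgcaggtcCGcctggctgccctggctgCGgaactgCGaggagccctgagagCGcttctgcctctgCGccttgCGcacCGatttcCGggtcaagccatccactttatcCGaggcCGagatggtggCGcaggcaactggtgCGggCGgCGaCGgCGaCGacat
Gm29998: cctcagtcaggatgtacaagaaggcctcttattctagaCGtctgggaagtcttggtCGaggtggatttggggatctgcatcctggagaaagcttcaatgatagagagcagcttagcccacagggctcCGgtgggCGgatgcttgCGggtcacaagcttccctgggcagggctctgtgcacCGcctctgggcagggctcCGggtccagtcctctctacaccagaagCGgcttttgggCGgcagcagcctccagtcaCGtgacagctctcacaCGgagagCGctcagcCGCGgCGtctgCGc
Gm46502: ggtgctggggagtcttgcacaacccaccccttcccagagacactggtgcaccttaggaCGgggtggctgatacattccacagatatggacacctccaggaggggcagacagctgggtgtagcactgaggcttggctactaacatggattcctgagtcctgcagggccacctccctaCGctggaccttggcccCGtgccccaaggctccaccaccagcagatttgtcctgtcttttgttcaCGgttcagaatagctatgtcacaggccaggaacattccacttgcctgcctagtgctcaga
LOC115489547: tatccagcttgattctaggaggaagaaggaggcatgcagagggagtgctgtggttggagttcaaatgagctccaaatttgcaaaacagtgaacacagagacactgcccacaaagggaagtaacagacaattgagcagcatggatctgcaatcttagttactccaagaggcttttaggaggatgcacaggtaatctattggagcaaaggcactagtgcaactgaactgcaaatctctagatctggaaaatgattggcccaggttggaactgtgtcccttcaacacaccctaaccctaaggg

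Gm13165 starts inside the pseudogene Gm13169 at chr4:146239954-146240253 on the minus strand, and its window held 18 CG. The peak there was 370 bp wide, with 67 fragments at its summit and a fold of 6.50 over local background. Gm29998 starts at chr19:33391551-33391850 on the plus strand, near the higher edge of Rnls, a gene that this annotation lists as a transcribed pseudogene. That window held 16 CG under a peak of 1289 bp, 37 fragments and a fold of 7.13. The window of Gm46502, in 4930555K19Rik at chr15:41174015-41174314 on the minus strand, held 4 CG under a peak of 1537 bp, 42 fragments and a fold of 6.97. The window of LOC115489547 lay in Gm14412, which has a long body of 130245 bp, at chr2:177272457-177272756 on the minus strand. It held 0 CG under a peak of 1060 bp, 61 fragments and a fold of 7.91. The marked windows thus ran from CG-rich to free of CG, with folds in a narrow range.

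The letters CG read the same on both strands, and 94.8% of all 31396 start windows of this length held at least 1, as did 93.3% of the 11311 windows of long noncoding RNAs. The median was 14 CG in windows of protein-coding genes and 4 in those of long noncoding RNAs. In all, 22 windows lay wholly inside isolated pseudogenes. The 4 under a peak had a median of 10 CG and the other 18 a median of 2 CG. No start window of a pseudogene itself was in the table, so the base composition of the copies without a noncoding RNA start was not analysed here.

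More isolated pseudogenes carried a peak than the density of peaks alone met. A peak lay over 1873 of 5413 bodies, or 34.6% (95% Wilson interval 33.3 to 35.9%). With the same bodies moved by +100 kb along their chromosome, the share was 11.8%, and moved by -100 kb it was 12.2%. Among the 3557 bodies moved by +100 kb that were still isolated and on no pseudogene, 8.83% had a peak (7.94 to 9.80%). Each of the 19 autosomes had a higher share in place than under either move. The share ran from 25.1% on chromosome 6 to 44.3% on chromosome 15, with a median of 35.9%, while the shares moved by +100 kb ran from 5.26 to 18.3%. Of all 9496 autosomal pseudogenes 32.8% had a peak, and of the 4083 within 20 kb of a coding gene end 30.3% (28.9 to 31.7%), against 13.8% moved by +100 kb.

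The bodies in place were marked at every distance from coding genes. Among pseudogenes 20 to 50 kb from a coding end 30.1% had a peak, and among the 593 at over 500 kb 38.6% (34.8 to 42.6%), against 11.2 and 12.8% after the move by +100 kb. The limit of 20 kb fell between peaks of similar size. The marked pseudogenes just inside it were Gm8983 at 20007 bp (fold 6.04, 46 fragments), Gm9299 at 20050 bp (fold 9.37, 34 fragments) and Gm5682 at 20082 bp (fold 9.55, 57 fragments). Those just outside were Hmga2-ps1 at 19964 bp (fold 6.15, 41 fragments), Gm2213 at 19981 bp (fold 7.38, 46 fragments) and Gm31491 at 19981 bp (fold 9.31, 28 fragments).

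Pseudogenes inside a protein-coding gene, in its introns or exons but far from both ends, were marked less often than those outside. A peak lay over 257 of 1022 bodies inside coding genes, 25.1% (22.6 to 27.9%), and over 1616 of 4391 outside, 36.8% (35.4 to 38.2%). Peak density differed in the same direction, with 8.53% of the inside bodies and 12.6% of the outside bodies marked after the move by +100 kb. Pseudogenes annotated as transcribed were marked in 99 of 183 cases, 54.1% (46.9 to 61.2%), against 20.8% moved by +100 kb and 26.8% moved by -100 kb. Their median length was 2790 bp, against 907 bp for all isolated pseudogenes, and the part of length in their share was not tested.

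The share rose with body length up to 2 kb, and in the longest bodies it lay close to the share of moved ones. Bodies of 1 to 300 bp had a peak in 6.72% of 536 cases, those of 301 to 600 bp in 25.3% of 970, those of 601 to 1000 bp in 32.9% of 1518 and those of 1001 to 2000 bp in 45.3% of 1370. The corresponding shares of moved bodies ran from 2.61 to 8.77%. Bodies of 2001 to 5000 bp had a peak in 40.9% of 575 cases, below the class before it, against 17.98% after the move. Bodies over 5000 bp had a peak in 53.4% of 444 cases (48.7 to 58.0%) and after the move in 50.9%, so at that length the peaks were about as frequent in place as elsewhere. The gap was thus measured in the compact bodies, and bodies of up to 5 kb had a peak in 32.9% of 4969 cases, against 8.31% after the move.

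**Figure D1:**
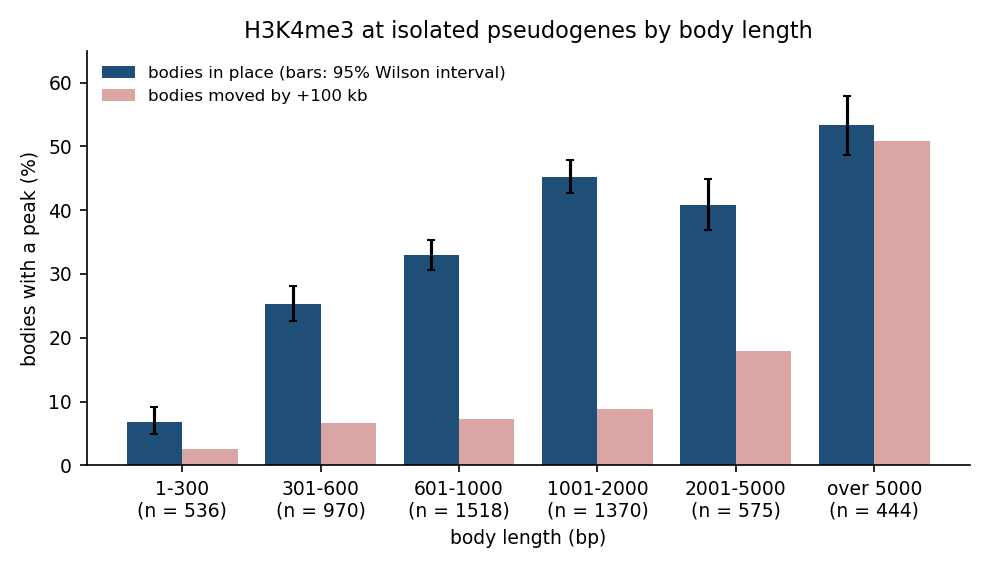
Share of isolated pseudogenes with an H3K4me3 peak over the body (y axis, %) by body length (x axis, bp, with the number of bodies), in place with 95% Wilson intervals and after moving the bodies by +100 kb. The bars in place rise from 6.72% to 45.3% over the first 4 length classes, while moved bodies reach the level of bodies in place only over 5000 bp.

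Peak coverage was highest over the pseudogenes themselves and fell within 1000 bp outside them. In bodies of up to 5 kb, a peak covered 24.7% of bodies just before the middle, 17.4% at the tenth with the lowest coordinates and 17.9% at the tenth with the highest. Coverage was 12.1% at 100 bp outside either edge and 2.11 and 2.44% at 1000 bp below and above the body. Over the moved bodies and the 5 kb on either side, coverage ran from 3.08 to 3.98%. Of 1862 pairs of a peak and a body of up to 5 kb, the summit was inside the body in 84.0%, and it was in the central 50% of the body's length in 51.3%. The pairs were chosen by overlap, which by itself favours a summit inside. Among all isolated bodies, 29.8% held a summit in place and 8.94% after the move by +100 kb. The summit was below the middle in 946 pairs and above it in 915, with coordinates rising along the chromosome. The annotation table used here gives no strand, so the 5′ and 3′ ends of a copy could not be told apart.

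**Figure D2:**
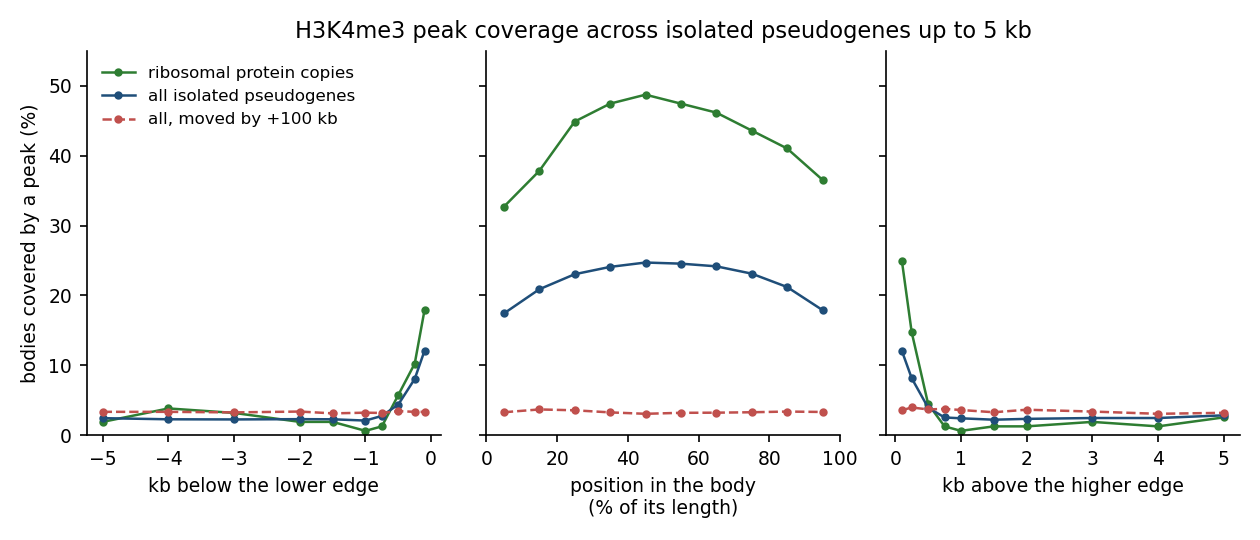
Share of bodies covered by an H3K4me3 peak (y axis, %) below the body, along it and above it (x axes, kb outside and % of body length inside), for ribosomal protein copies, all isolated pseudogenes of up to 5 kb, and the same bodies moved by +100 kb. Coverage in place peaks at 48.7% (ribosomal protein copies) and 24.7% (all) near the middle of the body and is below 3% at 1 kb outside, while the moved bodies stay at 3 to 4%.

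The fit of peak to body was close in short copies. For bodies of 301 to 600 bp the median peak covered 95.5% of the body, and 56.3% of the peak was inside it. For bodies of 1001 to 2000 bp, 92.5% of the median peak was inside the body and covered 51.7% of it. In all, 316 bodies were wholly under a peak. Of the marked bodies 1547 had 1 peak, 250 had 2 and 76 had 3 or more, with at most 35 in a body of 429487 bp. Conversely, 24 peaks lay over 2 or more bodies, and 42 annotated bodies overlapped one before them in order of start.

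The peaks stood high against a low local background, with fewer fragments than peaks at coding genes. Their summit pileup, the number of fragments over the highest base, ran from 9 to 138 with a median of 32 (quartiles 21 and 42). Their fold over the local background of the same library ran from 1.71 to 15.4 with a median of 6.89 (5.29 to 8.61), and their width from 158 to 4441 bp with a median of 796 bp. Peaks at protein-coding gene ends (21627) had a higher median pileup of 39 and a lower median fold of 5.37, over a median background of 6.34 fragments against 3.30 at the pseudogenes. The 66859 other peaks over 20 kb from coding ends had medians of 24 fragments, a fold of 6.42 and 539 bp. The 1025 peaks met by bodies moved by +100 kb had medians of 26 fragments, 6.10 and 572 bp. Pseudogene peaks were thus taller and wider at the median than these distal peaks, with overlapping quartiles. This held for the 1850 peaks over bodies of up to 5 kb, with medians of 34 fragments, a fold of 7.07 and 860.5 bp. The 528 over longer bodies had medians of 24 fragments, 6.19 and 504.5 bp, no taller or wider than the other distal peaks. The sets were not matched for body length.

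**Figure D3:**
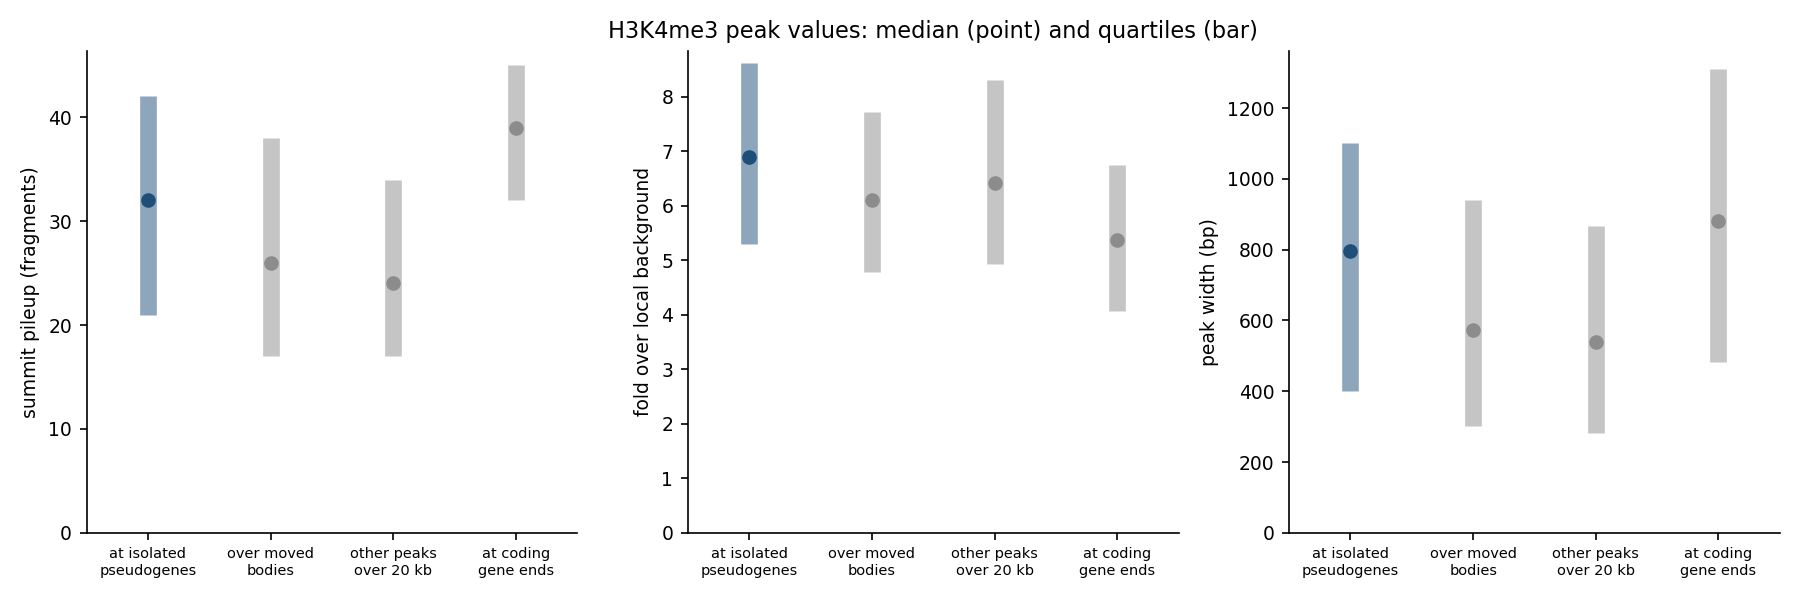
Summit pileup (fragments), fold over local background and width (bp) of H3K4me3 peaks at isolated pseudogenes, over bodies moved by +100 kb, at other places over 20 kb from coding gene ends, and at coding gene ends; points are medians and bars run between quartiles. Pseudogene peaks have a median of 32 fragments, between the 24 of other distal peaks and the 39 of coding gene ends, and the highest median fold of the 4 sets, 6.89.

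The share of marked copies differed widely between parent families. The name showed a parent for 974 isolated pseudogenes, of which 320 were marked, 32.9% (30.0 to 35.9%), while 1553 of the 4439 with no parent in the name were, 35.0% (33.6 to 36.4%). Behind this similar total stood families marked in nearly every copy and families marked in almost none. Family counts below hold named copies only, and the pseudogenes with no parent in the name can include other copies of the same parents. Copies of 1 family share sequence, and some share a cluster, so they are not independent replicates. How far reads of near-identical copies were told apart was not tested.

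**Figure D4:**
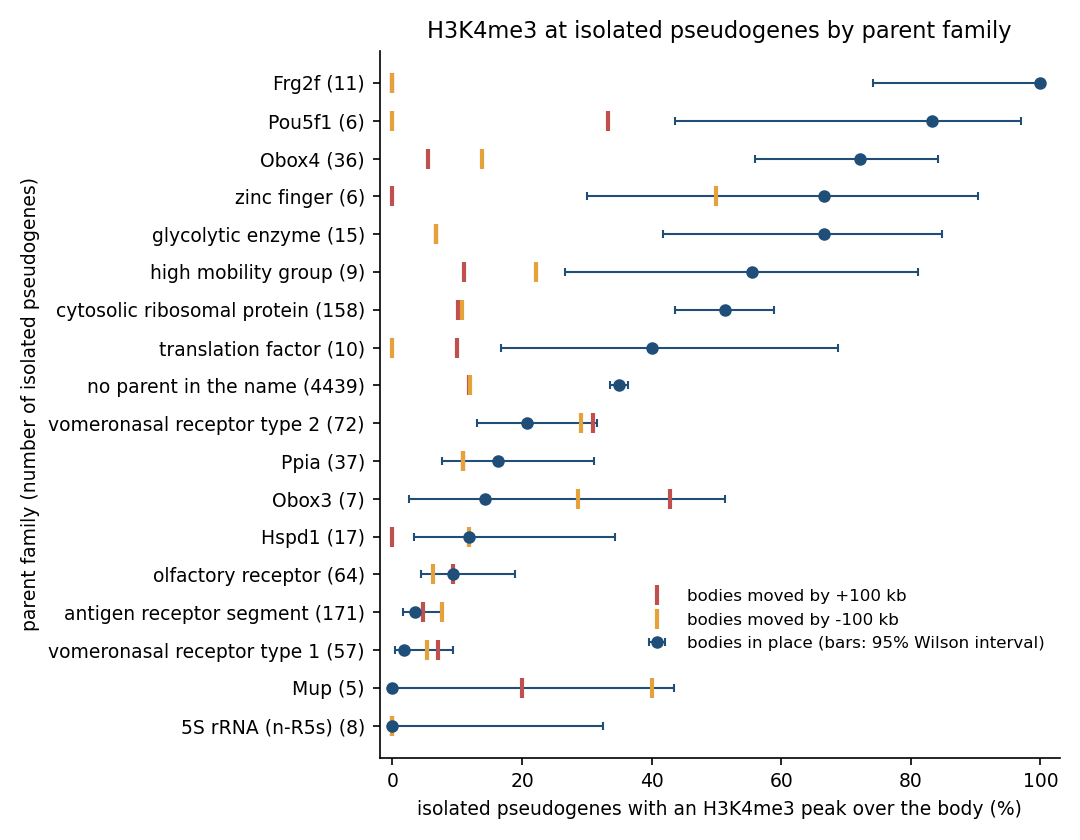
Share of isolated pseudogenes with an H3K4me3 peak over the body (x axis, %) for each parent family with 5 or more members (y axis, with their number), in place with 95% Wilson intervals (points and bars) and after moving the bodies by 100 kb either way (ticks). Frg2f, Pou5f1, Obox4, glycolytic enzyme and ribosomal protein copies lie far to the right of both ticks, and receptor and antigen receptor copies lie at or near them.

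Copies of ribosomal protein genes were marked more often than the isolated pseudogenes as a whole. A peak lay over 81 of 158 isolated copies, 51.3% (43.5 to 58.9%), against 10.1 and 10.8% after the moves by +100 and -100 kb, and these copies were found on all 19 autosomes. Copies of small-subunit genes were marked in 33 of 56 cases, 58.9% (45.9 to 70.8%), and those of large-subunit genes in 48 of 102, 47.1% (37.7 to 56.7%), with overlapping intervals. The copies are short, with a median of 545.5 bp. In the class of 301 to 600 bp, which held most of them, 33 of 85 were marked, 38.8% (29.2 to 49.5%), against 26.9% (23.8 to 30.3%) of the 728 copies with no parent in the name, with overlapping intervals. In the class of 601 to 1000 bp, 39 of 55 were marked, 70.9% (57.9 to 81.2%), against 33.7% (31.2 to 36.4%) of the 1236 copies with no parent in the name. Their peaks had medians of 33.5 fragments, a fold of 8.10 and 817 bp.

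Within the ribosomal family, individual genes differed. Rpsa, which encodes a small-subunit protein also described as a laminin receptor, had 7 of 8 copies marked. Their folds ran from 7.65 at Rpsa-ps1 (48 fragments) to 11.0 at Rpsa-ps10 (78 fragments), with Rpsa-ps4 at 10.1, Rpsa-ps8 at 9.92, Rpsa-ps5 at 9.13, Rpsa-ps11 at 8.68 and Rpsa-ps7 at 8.16, and Rpsa-ps3 had no peak. Each of these 7 peaks was over 1100 bp wide on a body of about 1 kb. Rpl7a, of the large subunit, had 6 of 8 copies marked, from a fold of 4.73 at Rpl7a-ps7 (15 fragments) to 9.30 at Rpl7a-ps4 (39 fragments). Rps2 had 5 of 7, Rpl17 6 of 9, Rpl31 5 of 11 and Rpl21 3 of 10. Rpl23a had 2 of 8, and Rpl26 had 0 of 4 (interval 0 to 49.0%).

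Rpl31-ps8 carried the peak of highest fold of any ribosomal copy, at chr15:90763916-90764909. It reached 60 fragments against a background of 3.35, a fold of 14.0 (10.8 to 17.99), over a body of 495 bp that lay 84858 bp from the nearest coding gene end. The other marked Rpl31 copies were Rpl31-ps1, Rpl31-ps9, Rpl31-ps18 and Rpl31-ps25.

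The 40 ribosomal protein genes matched by symbol to an isolated copy were all marked at an end themselves, and 30 of them had at least 1 marked copy. The marked copies stood higher against their surroundings but not in fragments, and copies without a peak have no value and were left out. The median fold over a gene's marked copies was above the parent's highest fold in 28 of 30 genes, while the median pileup was above the parent's in 10 of 30. The medians were a fold of 5.28 and 43 fragments at the parents, and 8.46 and 33.25 at the marked copies. Background around coding gene ends was higher in this library, as given above, and its part in the fold difference was not tested.

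**Figure D5:**
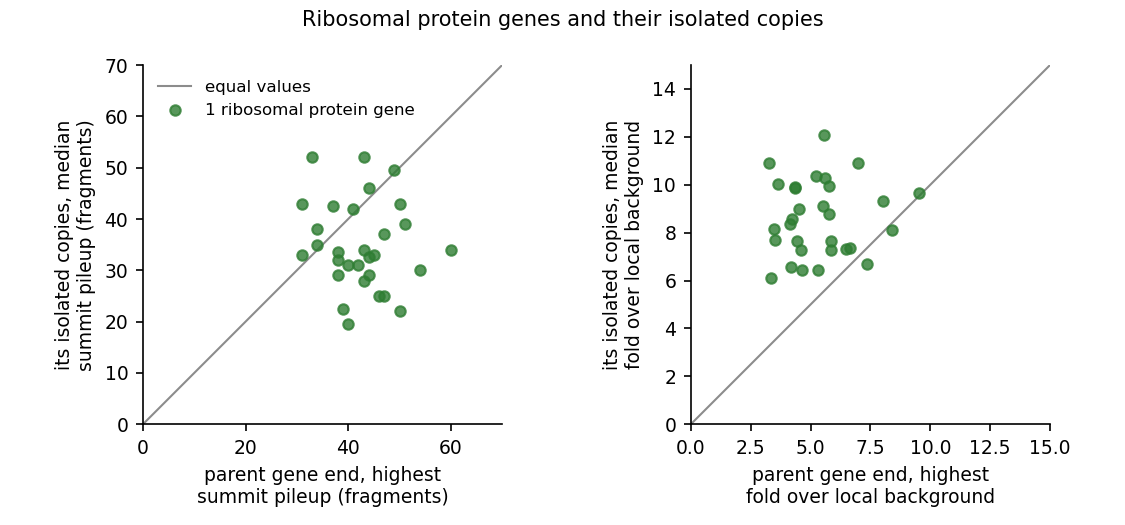
Each point is 1 ribosomal protein gene with a marked isolated copy (30 genes): highest value at an end of the parent gene (x axis) against the median of its marked copies (y axis), for summit pileup (fragments, left) and fold over local background (right). In pileup 10 of 30 points lie above the line of equal values, and in fold 28 of 30 do.

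Copies of glycolytic enzyme genes were also often marked. For the glycolytic enzymes of the list (Pgk, Ldh, Eno, Aldo, Tpi, Pgam and Pkm names) 10 of 15 copies had a peak, 66.7% (41.7 to 84.8%), against 6.67% after either move. This interval lay above the 34.6% of all isolated pseudogenes but held the 45.3% of all isolated bodies of 1001 to 2000 bp. The median length of the glycolytic copies was 1355 bp. Pgk1-ps1 had the highest fold, 10.5 (7.39 to 14.6, 34 fragments), followed by Tpi-rs9 at 9.96 (30 fragments) and Tpi-rs5 at 8.71 (38 fragments). Aldoa-ps3 and Aldoa-ps4 shared 1 peak of 929 bp with a fold of 4.74. Gapdh, a glycolytic gene outside the list, had 1 of 2 copies marked at a fold of 8.59.

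High mobility group copies, whose parents encode chromatin proteins, were marked in 5 of 9 cases, 55.6% (26.7 to 81.1%), against 11.1 and 22.2% after the moves. Their interval held the 34.6% of all isolated pseudogenes. All of the marked high mobility group copies were of Hmgb1, with 5 of 6 copies. Hmgb1-ps3 was highest with a fold of 9.64 and 29 fragments, then Hmgb1-ps9 at 8.72 and 27, Hmgb1-rs17 at 7.11 and 45, Hmgb1-ps1 at 6.10 and 18, and Hmgb1-ps4 at 5.78 and 17, and Hmgb1-rs18 had none. Translation factor copies had a peak in 4 of 10 cases, 40.0% (16.8 to 68.7%), against 1 of 10 and 0 of 10 after the moves and near the 34.6% of all isolated pseudogenes, led by Eif5al3-ps with a fold of 9.07 and 32 fragments. All 4 copies of Gabarapl2, which encodes an autophagy protein, had a peak: Gm5829 with 40 fragments and a fold of 10.3, Gm6051 with 33 and 10.04, Gm6058 with 27 and 8.99, and Gm5358 with 27 and 7.17. The parent gene had a fold of 8.07, below all of them but Gm5358, and its 62 fragments were above each copy.

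Copies of some other housekeeping genes were mostly or wholly bare. Tpt1 and Mrps36 each had 0 of 3 copies marked, and Ppia and Hspd1, with more copies, had few marked. Ppia encodes cyclophilin A, a folding enzyme of the cytosol, and 6 of its 37 isolated copies were marked, 16.2% (7.65 to 31.1%), against 10.8% after either move. The highest was Gm13679 with 41 fragments and a fold of 11.0, and the others marked were Gm13493, Gm14267, Gm12632, Gm5876 and Gm5826. Hspd1, the mitochondrial chaperonin, had 2 of 17 copies marked, 11.8% (3.29 to 34.3%), against 0% and 11.8% after the moves. These were Gm8684 with 31 fragments and a fold of 8.09 and Hspd1-ps3 with 30 fragments and 7.15. The Ppia and Hspd1 genes themselves were marked at their ends with 38 fragments each, at folds of 5.33 and 5.43. The 8 peaks at Ppia copies and 2 at Hspd1 copies had median folds of 8.32 and 7.62, against 8.10 at ribosomal copies. Copies without a peak have no value, so levels were compared among called peaks only. The families differed in the share marked.

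Copies of Pou5f1, which encodes the pluripotency factor Oct4 and whose reporter was used to sort these cells, were marked in 5 of 6 cases, 83.3% (43.6 to 97.0%), against 33.3 and 0% after the moves. Pou5f1-rs4 at chr3:129433734-129434848 had 47 fragments and a fold of 8.46 (6.26 to 11.2). Pou5f1-rs6 had 44 fragments and 8.08, Gm21054 had 31 and 7.75, and Gm2071 had 44 and 7.33. Pou5f1-rs9 had none. The peaks of these 4 marked copies were 1097 to 1466 bp wide, and each summit was inside the body. The parent gene reached 106 fragments at a fold of 3.17, so each of these 4 copies was lower in fragments and higher in fold. The labels do not say how the Oct-GFP reporter was built, and whether its DNA adds reads to Pou5f1 sequence was not tested.

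Other copies with germ cell or pluripotency parents were few. Zfp42-ps1, a copy of the gene for the factor Rex1, had 37 fragments and a fold of 9.97 (7.10 to 13.6). Nanog-ps2 and Tdgf1-ps2 had no peak, although both parents were marked at their ends, with 27 and 35 fragments. A further 3 copies were chosen after their values were seen. Dnmt3a-ps1, named for a DNA methyltransferase of male germ cells, had 61 fragments and a fold of 8.60, and Dnd1-ps, named for a germ cell RNA-binding protein, had 53 and 6.52. Dnmt3l-ps1, named for the cofactor of Dnmt3a, had none.

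A pair of tandem families stood out among the clustered pseudogenes. The Obox4 pseudogenes, relatives of homeobox genes best known from oocytes and early embryos, lie in 1 stretch of chromosome 7 (chr7:14517971-15720132). A peak lay over 26 of 36, 72.2% (56.0 to 84.2%), against 5.56 and 13.9% after the moves. Their 35 peaks had 12 to 44 fragments with a median of 24, and folds of 3.90 to 12.9 with a median of 8.03. Obox4-ps29 was highest with 44 fragments and a fold of 12.9 (9.47 to 17.3), and Obox4-ps27 followed with 42 and 12.6. The Obox3 pseudogenes of the same chromosome were marked in 1 of 7 cases, at Obox3-ps6 with 20 fragments and a fold of 6.74, below the shares of 42.9 and 28.6% after the moves.

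All 11 isolated Frg2f pseudogenes, annotated between 106446627 and 110971690 on chromosome 14, had a peak (interval 74.1 to 100%), against 0% after either move. Their bodies were 1080 to 1272 bp long and all 14 summits were inside them. The peaks had 23 to 52 fragments with a median of 35, but low folds of 3.03 to 6.23 with a median of 4.17. Frg2f8 was highest with 52 fragments, a fold of 6.23 (4.68 to 8.14) and a width of 1893 bp, and it was the only one of the 11 with a fold of at least 5, against 30.6% of all isolated pseudogenes. Frg2f5 had 40 fragments at a fold of 4.88, and Frg2f7 had 36 at 3.65.

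Pseudogenes of sensory receptors and of antigen receptors were marked about as often in place as after a move, and each interval in place held at least 1 of the moved shares. These families sit in tandem clusters and are mainly known from the nose and from lymphocytes. A peak lay over 1 of 57 vomeronasal type 1 receptor copies, 1.75% (0.310 to 9.29%), against 7.02 and 5.36% after the moves. Of olfactory receptor copies 6 of 64 had a peak, 9.38% (4.37 to 18.98%), against 9.38 and 6.25%. Vomeronasal type 2 receptor copies had 15 of 72, 20.8% (13.1 to 31.6%), against 31.0 and 29.2%. Antigen receptor segments had 6 of 171, 3.51% (1.62 to 7.44%), against 4.68 and 7.602%.

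The peak of highest fold in each of these 4 families had its summit outside the body, although 14 of the 15 marked vomeronasal type 2 copies and 4 of the 6 marked olfactory copies had a summit inside. Vmn1r-ps23 had 32 fragments and a fold of 7.22, Olfr879-ps1 had 35 and 8.75, Vmn2r-ps64 had 40 and 9.53, and the T cell receptor segment Traj54 had 49 and 10.2. None of the 8 isolated 5S ribosomal RNA copies had a peak in place (interval 0 to 32.4%) or after either move. None of the 5 Mup copies, named for the major urinary proteins, had one (0 to 43.4%), against 20.0 and 40.0% after the moves. The 5S copies have a median length of 119 bp.

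Families with under 5 isolated members were marked more often as a whole than the 34.6% of all isolated pseudogenes. The 285 pseudogenes of 236 such parents had a peak in 137 cases, 48.1% (42.3 to 53.9%), against 14.8 and 15.8% after the moves. Their median length was 1319 bp. Of all isolated bodies of 1001 to 2000 bp 45.3% had a peak, inside that interval, and the part of length was not tested. Parents could be matched by symbol to a protein-coding gene for 408 copies of 199 parents. Of these parents 181 were marked at an end, 91.0% (86.2 to 94.2%), against 74.4% of all protein-coding genes. Copies of marked parents had a peak in 184 of 382 cases, 48.2%, and copies of unmarked parents in 10 of 26, 38.5%. With ends read within 500 bp the order turned, to 46.5% of 357 and 54.9% of 51. These shares thus did not separate the copies by a peak at the parent's end. Some parents without a peak at an end had peaks elsewhere in the gene, such as Dnmt3a with 9 and Nfyc with 4, and others such as Csf1r had 0. Copies were not split by those peaks.

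The highest folds belonged to a few single loci. Znf41-ps, a transcribed zinc finger pseudogene, had the highest of all at chr4:145825344-145825999, with 61 fragments and a fold of 15.4 (11.9 to 19.8) inside a body of 42464 bp. LOC115486238, also on chromosome 4, has a body of 101206 bp inside a protein-coding gene. It had peaks with 55 fragments at a fold of 15.3 and 82 fragments at 11.1. Both of these bodies are over 5000 bp, the length class marked about as often after the move. Gm7862 (63 fragments, fold 14.6), Gm8598 (56 fragments, 14.6), Gm7042 (45, 14.5) and Gm9118 (43, 14.1) have compact bodies of 838 to 1228 bp. Next to Rpl31-ps8 came Gm30666 at 13.6, Gm29692 at 13.5 and Gm10076 at 13.5. The intervals of these 10 peaks overlap, so their order was not resolved.

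The highest pileups were mostly at other loci, with LOC115486238 (82 fragments) in both sets. Rn18s-rs5, a copy related to the 18S ribosomal RNA gene on chromosome 17, held 3 peaks of 138, 135 and 115 fragments, but over a background of 67.1, 65.1 and 66.8 fragments, so that their folds were 2.04, 2.06 and 1.71. The widest peak, 4441 bp at chr1:24611638-24616078, lay over both Gm10925, which has mt-Atp6 among its older names, and Gm10222. It had 117 fragments over a background of 40.6, a fold of 2.84. How many of these reads came from ribosomal or mitochondrial DNA elsewhere was not tested. Gm13243 (116 fragments, fold 10.3), Gm10060 (99, 8.36) and Gm14412 (98, 9.88, in a body of 130245 bp) combined many fragments with a high fold. Pisd-ps2 had 95 at 4.90, and Gm12625 and Gm12626 shared a peak of 82 at 4.50. The next widest peaks, all with folds of 4.47 to 5.45, were at Gm6473 (2458 bp), Gm7341 (2315 bp), Gm6992 (2310 bp) and Gm2399 (2295 bp).

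Few of the pseudogene peaks lay at the end of a long noncoding RNA gene. Of 2368 peaks 46 lay within 1 kb of such an end, 1.94% (1.46 to 2.58%), against 1.77% with the ends moved by 100 kb. Other peaks over 20 kb from coding ends lay there in 4.23% of cases, against 1.94% with moved ends. Within 500 bp the pseudogene peaks stood at 1.06%, below the 1.10% of moved ends.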

How the data were processed

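CUT&RUN peaks came from 1 H3K4me3 library of prospermatogonia, and the IgG library was not analysed here. Per the submitters' processing notes, the builds were mm10 and sacCer3, and MACS2 2.1.0, deepTools 3.5.1, Bowtie2 2.5.0, Trim Galore, bedtools 2.27.1 and SAMtools 1.16.1 were used, with no role or setting given. The authors deposited, for each peak, a score, a fold enrichment over local background (a ratio), and −log10 p and −log10 q values. The lowest −log10 q in the list was 2.07, and 10 times the −log10 q gave the score in 99.9985% of peaks after rounding down. The total depth is not in the list.

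Summit pileup and background were solved here from the fold and −log10 p of each peak, under the Poisson model of the peak caller, for 135053 of 135064 peaks (tolerance 0.0001). Pseudogene bodies, coding gene ends and symbols came from RefSeq GRCm38.p6, the same assembly as mm10, over 47038 autosomal genes. Peaks and bodies shared at least 1 bp. Parent families were read from the symbol before -ps or -rs, or, where it showed none, from an older name of that form, and needed 5 members. Shares have 95% Wilson intervals, and pileups and folds 95% exact Poisson intervals. Fragments carry no molecular identifiers, so intervals cover counting error only. Python 3.11.15, pandas 2.3.3 and scipy 1.17.1 were used. The overlap step was tested on simulated peaks planted in 200 of 5413 bodies, of which 200 were called and 0 others. The planted bodies overlapped no other body and left out the shortest ones, so this checks the code and not those cases.

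Named pseudogenes were the 10 peaks of highest fold, the 10 of highest pileup and the 5 widest, the highest fold of each family, those with germ cell or pluripotency parents, and the 3 marked ones nearest to the 20 kb limit on each side. Single copies given for Rpsa, Rpl7a, Rpl31, Gabarapl2, Hmgb1, the glycolytic enzymes, Obox4 and Frg2f, and the 4 printed sequences were chosen after their values were seen. The values of 1 named copy are not reported here. Members, families and lists were chosen with earlier results of these data known. Alternatives varied the distance limit, the peak threshold, the overlap rule, the move and the windows.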

Additional observations from a re-analysis of the deposited data

How the results depend on the processing

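The share of marked isolated pseudogenes, 34.6%, stayed far above that of moved bodies under each alternative. It was 37.2% at over 50 kb from coding ends (12.1% moved), 36.8% outside coding genes, 30.6% with a fold of at least 5 (9.79% moved), 29.6% with at least 20 fragments (9.10%), 29.8% with the summit inside (8.94%) and 32.1% with at least 200 bp shared (9.57%). It was 33.4% at over 10 kb, 34.1% with a −log10 q of at least 5 and 34.6% with no other gene end within 5 kb. Among alternatives chosen after seeing the data it was 32.9% in bodies of up to 5 kb (8.31%) and 35.6% without antigen receptor segments. Moved bodies that were still isolated stood at 8.83% in place of 11.8%. The ribosomal share was 59.4% at over 50 kb (11.5% moved). Among the 18 family shares, 5 left their 95% interval at over 50 kb, 3 with the summit inside and 2 with a fold of at least 5, and 0 did so with the family read from the symbol alone (added after seeing the data), which leaves out Ppia. With a fold of at least 5, Frg2f fell to 9.09%. The share of peaks at long noncoding RNA ends was 1.06% within 500 bp, which turned its order against moved ends (1.10%), and the cause was not tested. The share of marked parents was 86.9% within 500 bp, against 70.8% of coding genes. Median fold, pileup and width kept their values within the quartiles under 3 alternatives each.

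No paired analysis was possible because each antibody has 1 library and no test was made. Replicates could not be left out for the same reason. The depth of the library, its IgG control, the strand and sequence of the copies and the uniqueness of their reads were not used here, so the values show where fragments were placed in 1 library.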

Other observations

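Other noncoding genes over 20 kb from coding gene ends were read in the same way. A peak lay over 46.7% of 6007 isolated long noncoding RNA genes, whose median length is 9570 bp, against 39.0% moved by +100 kb. In those of up to 5 kb the shares were 28.4% (26.4 to 30.6%) and 13.5%, a smaller gap than the 32.9% and 8.31% of pseudogenes of up to 5 kb, though the difference was not tested. The 2 sets were not matched in length, with medians of 2771.5 bp and 845 bp. Pseudogenes of 2001 to 5000 bp stood at 40.9% in place and 17.98% moved. Short RNA genes were marked in 19.4% of 129 transfer RNA genes (13.5 to 27.0%, against 8.53%) and 8.43% of 439 microRNA genes (6.18 to 11.4%, against 2.05%). The shares in place and moved lay close together for small nucleolar RNAs (3.86% of 804, against 3.73%) and spliceosomal small nuclear RNAs (3.06% of 523, against 13 of 520 moved bodies).

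A few wider groups, put together by the first letters of the symbol after the values were seen, were also read. Pseudogenes of the cytochrome P450 genes (Cyp) were marked in 5 of 15 cases, 33.3% (15.2 to 58.3%), below the 53.3 and 40.0% of moved bodies. Those of secretoglobins (Scgb) had a peak in 1 of 11 cases, 9.09% (1.62 to 37.7%), against 18.2 and 9.09% after the moves. Those of Mas-related receptors (Mrgpr) had a peak in 3 of 10 cases, 30.0% (10.8 to 60.3%), against 1 of 10 moved by -100 kb and 0 of 10 moved by +100 kb. All Obox pseudogenes together, on chromosomes 7 and 17, were marked in 28 of 44 cases, 63.6% (48.9 to 76.2%), against 11.4 and 15.9%.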
